A study of Mus musculus with 12 samples.

Results

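The quaternary ammonium compounds methyltrioctylammonium chloride (MTOAC) and cetylpyridinium chloride (CPC), were compared with each other in mouse oligodendrocyte progenitor cells (OPCs). The comparison rests on 6 of the 12 RNA sequencing libraries of the series, 3 treated with MTOAC and 3 with CPC, taken by their titles and treatment labels. The other 6 libraries were 3 given the vehicle, dimethyl sulfoxide (DMSO), and 3 given C12-C14-alkyl(ethylbenzyl)dimethylammonium chloride (AEBDAC). Vehicle values are set beside the others to show which compound moved a gene, and the AEBDAC libraries enter the shared estimate of the spread. All cells were OPCs derived from mouse pluripotent stem cells (mPSC), grown with noggin, neurotrophin 3, cAMP and insulin-like growth factor 1, then left for 1 h to attach in a medium that permits differentiation and exposed for 4 h. No genotype, clone or line is given. Each compound was used at its IC75, the concentration inhibiting by 75%, so MTOAC and CPC were matched by their inhibitory effect and not by concentration. The concentrations are not given in the labels, so every difference reported here is between the 2 exposures as they were given. The labels do not say that the libraries of a group came from separate cultures, so a p-value reflects how these libraries scatter, which may be technical scatter.

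Both compounds are cationic surfactants. MTOAC carries octyl chains and a methyl group on an ammonium nitrogen and has no aromatic ring, whereas in CPC the positive nitrogen belongs to a pyridinium ring that bears a cetyl chain. CPC is an antiseptic of mouthwashes, and MTOAC is used in industry as a phase transfer catalyst. OPCs divide, carry the platelet-derived growth factor receptor and depend on OLIG and SOX transcription factors, and they become the oligodendrocytes that myelinate axons. Cells under stress switch on a few separable gene programmes. The heat shock response, driven by heat shock factors at their DNA elements, makes cytosolic chaperones when proteins misfold, and the integrated stress response, driven by the translation of ATF4, makes amino acid transporters, biosynthetic enzymes and the regulators CHAC1 and TRIB3.

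In these data MTOAC and CPC could not be told apart at any single gene after adjustment. Of 12009 genes tested, limma with Benjamini-Hochberg adjustment called 0 in either direction at an adjusted p under 0.05 (percent called 0). The 2 genes nearest to a call were Hspa1a and Hspa1b, the stress-inducible HSP70 genes, at an adjusted p of 0.379 each, and every other gene had an adjusted p of 1. At an unadjusted limma p under 0.05 there were 449 genes (3.74%), fewer than the 600.45 that make up 5% of the genes tested. They were 112 higher with MTOAC (0.933%) and 337 lower (2.81%). When the replicate number was added to the fit as a block, 825 genes had an unadjusted p under 0.05, more than 600.45, and again 0 were called. The libraries of the 2 compounds did not overlap at 271 genes with MTOAC higher (2.26%) and 762 with MTOAC lower (6.35%), or 1033 in all (8.6%).

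That no gene passed does not show that the compounds act alike. The 95% interval of the difference on the log2(TPM + 1) scale, where TPM, the deposited unit, are transcript abundances scaled by length and library total, had a half-width of 0.55 at the median gene. It lay within 1 log2 of no difference on both sides at 8546 genes (71.2%). Because of the added 1 TPM, 1 log2 on this scale stands for more than a 2-fold difference in TPM, and for much more at low genes. It lay wholly beyond 1 log2 at 3 genes, namely Hspa1a, Hspa1b and the mitochondrial pseudogene Gm28438. Gm28438 was named after its values were seen and is uncertain: it was listed at 0 TPM in all 3 CPC libraries and at 22.7, 83.8 and 146 TPM with MTOAC, but also at 628, 171 and 0 TPM in the vehicle libraries. A fitted difference above 1 log2 in size was found at 191 genes (1.59%). The median difference over all genes was -0.05 log2 and the quartiles were -0.20 and 0.10. This slight shift depended on scaling and on 1 library. The median was -0.01 log2 after quantile normalization, 0.02 after median centring and 0.003 without MTOAC library 2. The unequal counts of higher and lower genes are to be read against it. The plot of all tested genes shows this narrow spread and the position of the HSP70 pair outside it.

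**Figure D1:**
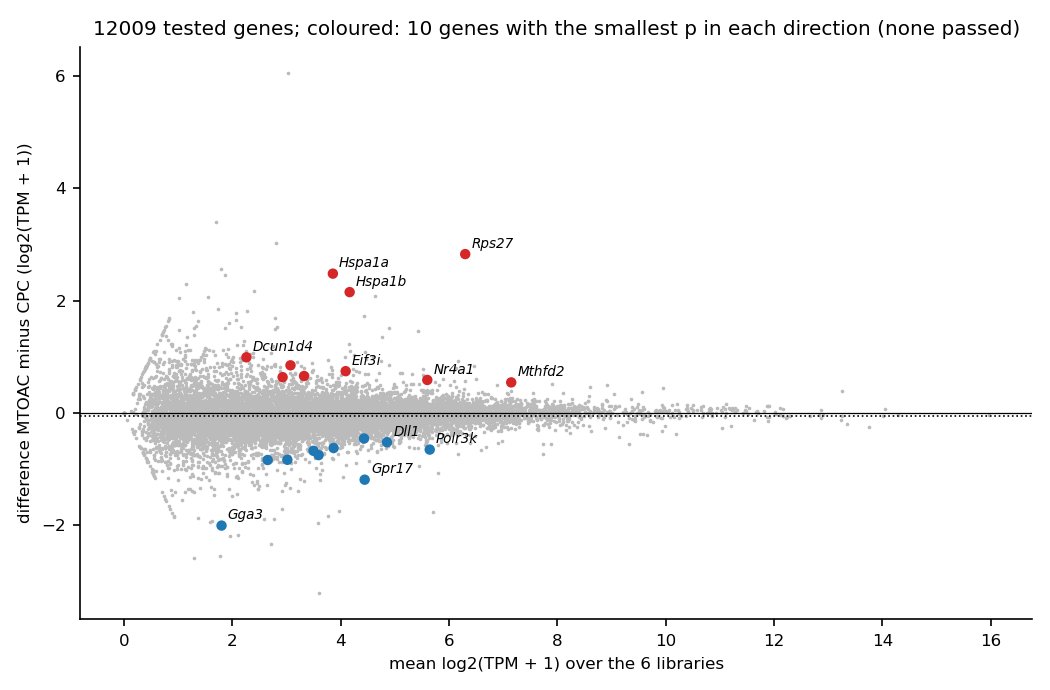
Difference MTOAC minus CPC against the mean level over the 6 libraries, both on the log2(TPM + 1) scale, for 12009 genes (grey). The solid line marks 0 and the dotted line the median gene at -0.05; red and blue points are the 10 genes per direction with the smallest p that also met the level and overlap conditions, 0 of which passed the adjusted test.

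The libraries limit the comparison as follows. The TPM of a library summed to between 772637 and 797758, and TPM keep no depth, which is stated only as at least 20 M reads. Across genes the log2 values of an MTOAC and a CPC library correlated at 0.936 to 0.974 (Pearson, across genes, which are not independent replicates), against 0.950 to 0.964 within CPC and 0.933 to 0.961 within MTOAC. Vehicle library 1 stood apart, with a mean correlation of 0.917 with the other libraries (0.935 to 0.957 for the rest) and 86422 TPM from mitochondrially encoded genes (147539 to 183001 in the rest). It does not enter the difference between the compounds, but it touches each comparison with vehicle. MTOAC against vehicle gave 785 calls (6.54%), 95 higher (0.791%) and 690 lower (5.75%), and CPC against vehicle gave 8 calls (0.0666%), 4 in each direction (0.0333% each). Without vehicle library 1 these were 305 and 3. Other libraries moved the counts as far: over all 9 libraries left out in turn they ran from 149 (without MTOAC library 2) to 581 and from 1 to 18. After quantile normalization MTOAC against vehicle gave 213 higher and 217 lower. With the replicate number as a block the calls were 1904 with MTOAC and 184 with CPC. In the fit without the block, used throughout, so few genes passed with CPC that a member not passing with CPC says little. The median gene lay at -0.22 log2 with MTOAC and -0.17 with CPC against vehicle, or -0.01 and 0.00 after quantile normalization, and a fall from vehicle is to be read against these shifts. The unequal numbers of calls against vehicle are not a test of MTOAC against CPC, and these comparisons share the vehicle libraries.

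The separation with the smallest p was in the HSP70 pair. Hspa1a and Hspa1b encode nearly identical cytosolic HSP70 chaperones that bind unfolded proteins, and each is a classical target of heat shock factor. Both lie on chromosome 17 of mm10, on the minus strand, Hspa1a at chr17:34969190-34972156 and Hspa1b at chr17:34956436-34959238. Their promoters are shown because a match to a short heat shock element pattern can be read in both. Whether the match bears on their levels was not tested. Each is the 250 bases before the RefSeq start on GRCm38.p6, 5′ to 3′ on the gene's strand, for Hspa1a chr17:34972157-34972406 and for Hspa1b chr17:34959239-34959488. Capitals mark the match to the heat shock element, searched as GAANNTTC or TTCNNGAA on both strands (each reads the same on the other strand).
Hspa1a: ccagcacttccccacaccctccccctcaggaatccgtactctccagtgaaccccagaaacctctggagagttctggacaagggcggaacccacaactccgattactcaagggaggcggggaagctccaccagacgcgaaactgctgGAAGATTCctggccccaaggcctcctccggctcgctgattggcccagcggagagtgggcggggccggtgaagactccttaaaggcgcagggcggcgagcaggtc
Hspa1b: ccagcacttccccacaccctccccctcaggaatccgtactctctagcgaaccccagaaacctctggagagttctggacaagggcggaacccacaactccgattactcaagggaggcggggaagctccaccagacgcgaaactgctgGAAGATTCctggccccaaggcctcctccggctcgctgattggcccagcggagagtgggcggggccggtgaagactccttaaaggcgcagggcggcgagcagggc

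The 2 promoters differed at 3 of 250 bases, C44T, T47C and T249G from Hspa1a to Hspa1b, counted from 1 at the 5′ end, and were 98.8% identical. Each held 1 match, whose first base lies at -104 from the start. A match of this kind was present in 4218 of all 32851 mouse promoters of this length (12.8%), in 1061 of 9062 promoters of tested genes (11.7%) and in 10 of 25 promoters of tested heat shock chaperone genes (40%). A match describes these letters and is no evidence of binding.

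Hspa1a stood at 3.98, 10.2 and 3.14 TPM in the CPC libraries and at 34.5, 33.5 and 32.0 TPM in the MTOAC libraries, with 3.52, 1.86 and 2.92 TPM in the vehicle libraries. The MTOAC libraries lay close together and far above both other groups, while CPC library 2 was the only CPC library above the vehicle range by more than a small margin. The fitted difference was 2.48 log2 (95% interval 1.65 to 3.31), a ratio of means of 5.77. Hspa1b stood at 5.58, 13.4 and 5.53 TPM with CPC, at 34.9, 38.5 and 37.5 TPM with MTOAC and at 3.93, 4.56 and 6.78 TPM with vehicle. Again CPC library 2 was the highest of its group. The MTOAC libraries overlapped neither other group, while CPC and vehicle overlapped. The difference was 2.15 log2 (95% interval 1.39 to 2.92). Against vehicle Hspa1a rose with MTOAC by 3.21 log2 (limma adjusted p 0.00376) and Hspa1b by 2.67 log2 (adjusted p 0.00569). With CPC the differences from vehicle were 0.73 log2 (adjusted p 0.424) and 0.51 log2 (adjusted p 0.544).

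Whether Hspa1a passed depended on which library was left out. Without CPC library 2 the difference was 2.92 log2 and passed, with an adjusted p of 0.0423. Other omissions went the other way. Without MTOAC library 3 the adjusted limma p of Hspa1a was 0.990. Hspa1a no longer had the smallest p without MTOAC library 1, MTOAC library 2, CPC library 1 or vehicle library 3. The same held with only the 6 MTOAC and CPC libraries, with the replicate number as a block and without the filter on low values. The difference itself ran from 2.20 to 2.92 log2 over the leave-one-out fits. The 2 genes cannot be counted apart with certainty, because 63.8% of the 31-base words of the Hspa1a transcript also occur in Hspa1b and 67.6% of those of Hspa1b in Hspa1a. Their sum was 70.3 ± 1.49 TPM with MTOAC (SD, n = 3), 13.95 ± 8.39 TPM with CPC and 7.86 ± 1.68 TPM with vehicle. The summed difference was 2.39 log2 (95% interval 1.59 to 3.18) at an adjusted limma p of 0.414. Hspa1a also overlaps Gm20481 on the other strand, and the library kit is not described as marking strand.

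The heat shock list as a whole was mixed. Of 33 tested members 15 had a positive and 18 a negative difference, with a median of -0.04 log2 against -0.05 over all genes, and 0 passed. The libraries of the compounds did not overlap at 5 members with MTOAC higher (2.26% of all genes) and at 4 with MTOAC lower (6.35% of all genes). The 5 were Hspa1a, Hspa1b, Hsp90aa1, Hspb1 and Fkbp4. Hsp90aa1, the inducible cytosolic HSP90, stood at 18.7, 24.4 and 9.77 TPM with CPC and at 47.8, 31.1 and 79.1 TPM with MTOAC, and its vehicle libraries at 37.8, 26.5 and 4.47 TPM overlapped both groups (difference 1.51 log2, 95% interval -0.23 to 3.26). Hspb1, the small heat shock protein HSP27, stood at 2.36, 2.74 and 1.71 TPM with CPC and at 9.57, 3.69 and 3.48 TPM with MTOAC, where library 1 was the highest (difference 0.90 log2, 95% interval -0.12 to 1.92). Hsp90aa1 and Hspb1 were named after their values were seen, and neither passed against vehicle with either compound. Dnajb1, an HSP40 co-chaperone and a usual companion of HSP70 in the heat shock response, stood at 18.1, 24.7 and 20.3 TPM with CPC and at 21.7, 26.7 and 20.1 TPM with MTOAC (difference 0.11 log2, 95% interval -0.23 to 0.46). Hspe1, the mitochondrial HSP10 chaperonin, differed by 0.10 log2 (95% interval -0.08 to 0.29). At Dnajb1 and Hspe1 both intervals end below 1 log2, and the libraries of the 2 compounds overlapped at each gene. These 2 genes were picked for their known role after their values were seen. Fkbp4, an HSP90 co-chaperone, was listed at 0.231, 0.476 and 0.631 TPM with CPC and at 5.32, 6.72 and 11.4 TPM with MTOAC, but at 43.4, 0.566 and 4.53 TPM with vehicle. The vehicle libraries of Fkbp4 thus spanned more than the gap between the compounds, and the difference of 2.56 log2 (95% interval 0.61 to 4.50) does not say which compound moved. Against vehicle 2 of the 33 rose with MTOAC, namely the HSP70 pair, and 4 fell, beside 0.791% and 5.75% of all genes, and 0 passed with CPC. Among the 4 that fell were the co-chaperones Dnaja1 and Stip1. After median centring 2 members rose and 0 fell against vehicle, and the list median of the difference between the compounds was 0.03 log2, beside 0.02 over all genes.

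**Figure D2:**
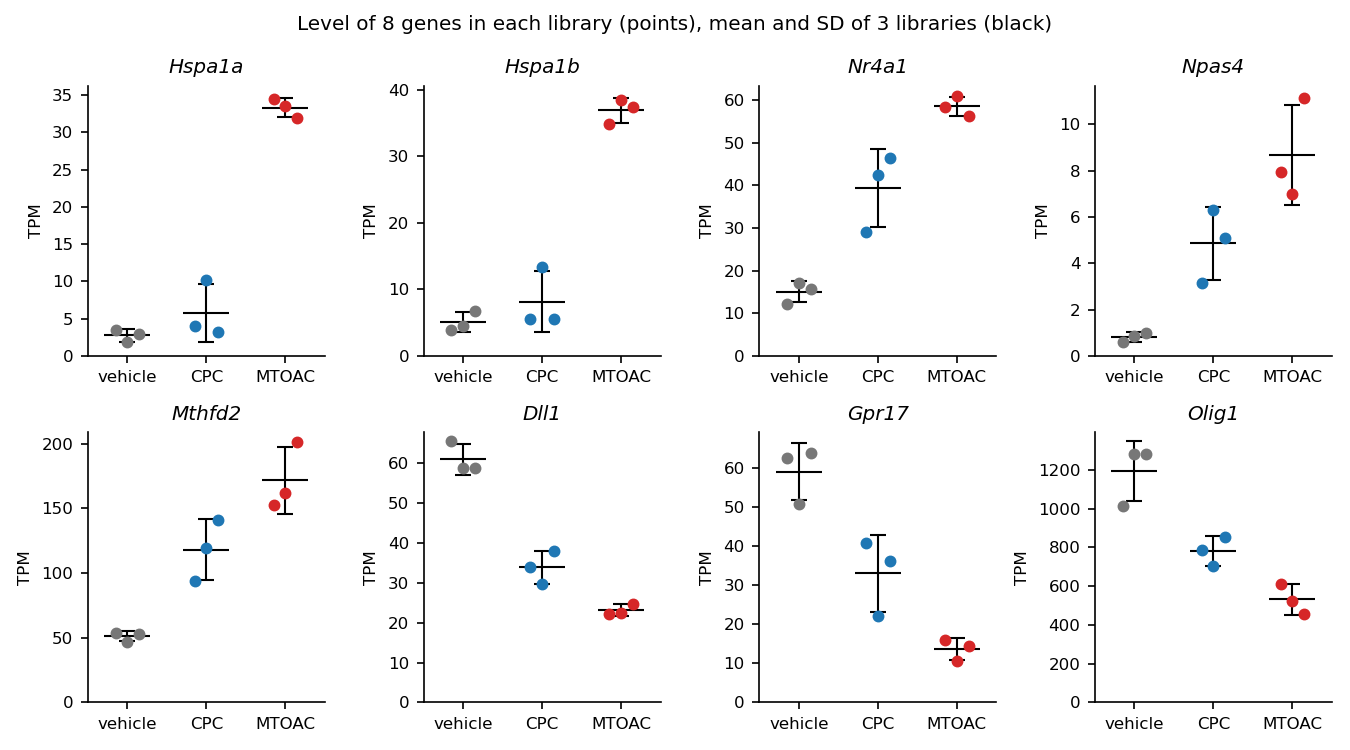
TPM of 8 genes in each library (points, replicates 1 to 3 from left to right), with the mean and SD of the 3 libraries in black; each axis starts at 0. The means of all 8 genes leave the vehicle mean in the same direction with both compounds and further with MTOAC. Hspa1a and Hspa1b are at 3.14 to 13.4 TPM with CPC, where their libraries overlap vehicle, and at 32.0 to 38.5 TPM with MTOAC. At the other 6 genes the CPC libraries do not overlap vehicle.

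Targets of the integrated stress response rose against vehicle with both compounds and mostly stood higher with MTOAC than with CPC. Of 50 tested target genes 39 had a positive difference MTOAC minus CPC and 11 a negative one, with a median of 0.28 log2 against -0.05 over all genes, and 0 passed. At an unadjusted p under 0.05, 7 members were higher with MTOAC and 0 lower, beside 0.933% and 2.81% of all genes. The libraries did not overlap at 9 members, all higher with MTOAC (2.26% of all genes). The median leaned on single libraries: it was 0.13 log2 without MTOAC library 3 and 0.16 log2 without CPC library 1.

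Chac1, a glutathione-degrading enzyme and one of the most inducible ATF4 targets, stood at 33.0, 45.9 and 40.04 TPM with CPC and at 55.8, 56.3 and 42.2 TPM with MTOAC, from 3.05, 6.502 and 7.42 TPM with vehicle. The 2 compounds overlapped, with a difference of 0.37 log2 (95% interval -0.19 to 0.92). Chac1 rose against vehicle by 3.03 log2 with MTOAC (adjusted p 0.000600) and by 2.66 log2 with CPC (adjusted p 0.00425). Trib3, a pseudokinase that feeds back on the pathway, stood at 14.1, 23.2 and 23.8 TPM with CPC and at 25, 26.6 and 28.5 TPM with MTOAC, from 2.45, 3.67 and 5.08 TPM with vehicle. Its difference was 0.41 log2 (95% interval -0.20 to 1.02), although its libraries did not overlap. Trib3 rose with MTOAC by 2.58 log2 (adjusted p 0.00228) and with CPC by 2.18 log2 (adjusted p 0.0246, or 0.0857 without vehicle library 1). Asns makes asparagine. Its vehicle libraries held 0.142, 1.88 and 0 TPM, the CPC libraries 5.49, 10.2 and 8.14 TPM and the MTOAC libraries 12.2, 9.75 and 16.04 TPM. The compounds overlapped at Asns, and the difference was 0.62 log2 (95% interval -0.28 to 1.52).

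Atf4 itself stood at 265, 384 and 360 TPM with CPC and at 366, 432 and 301 TPM with MTOAC, against 132, 176 and 220 TPM with vehicle. Its difference of 0.12 log2 (95% interval -0.32 to 0.57) turned slightly negative when MTOAC library 2 or CPC library 1 was left out. Ddit3, the pro-apoptotic factor CHOP, stood at 8.04, 9.63 and 9.45 TPM with CPC and at 10.2, 13.5 and 21.5 TPM with MTOAC, and vehicle at 12.7, 8.25 and 4.49 TPM spanned the CPC values. The difference of 0.62 log2 (95% interval -0.07 to 1.31) did not pass, and neither compound passed against vehicle. Ddit3 overlaps Mars on the other strand.

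The members with the smallest p lay further along the same path. Mthfd2, a mitochondrial folate enzyme that supplies one-carbon units, stood at 54.1, 46.5 and 53.2 TPM with vehicle, at 94.2, 119 and 141 TPM with CPC and at 152, 162 and 201 TPM with MTOAC. The 3 groups did not overlap, and the difference between the compounds was 0.54 log2 (95% interval 0.18 to 0.91). It rose against vehicle by 1.72 log2 with MTOAC (adjusted p 0.00109) and by 1.17 log2 with CPC (adjusted p 0.0331, or 0.0898 without vehicle library 1). Slc1a4, a transporter of alanine and serine, stood at 38.5, 47.8 and 45.1 TPM with CPC and at 54.3, 56.9 and 64.3 TPM with MTOAC, a difference of 0.41 log2 (95% interval 0.13 to 0.69). Herpud1, which serves the degradation of misfolded proteins at the endoplasmic reticulum, stood at 28.4, 35.1 and 35.5 TPM with CPC and at 41.3, 48.7 and 52.6 TPM with MTOAC, a difference of 0.51 log2 (95% interval 0.13 to 0.89). Both rose against vehicle with MTOAC, Slc1a4 by 0.78 log2 (adjusted p 0.0115) and Herpud1 by 1.23 log2 (adjusted p 0.00677), and neither passed with CPC. Against vehicle 14 of the 50 targets rose with MTOAC and 0 fell, while 3 rose with CPC and 0 fell, beside 0.791% and 0.0333% of all genes rising; without vehicle library 1 the rises were 12 and 1.

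In the unfolded protein response of the endoplasmic reticulum the differences were small. Of 26 tested members, among them the chaperones and folding enzymes of that compartment, 15 had a positive and 11 a negative difference, with a median of 0.02 log2. None reached an unadjusted p under 0.05, and the interval lay within 1 log2 of no difference at 25 of the 26.

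Immediate early genes, which neurons and glia transcribe within minutes of a stimulus, stood higher with MTOAC in most cases. Of 23 tested members 18 had a positive and 5 a negative difference, with a median of 0.40 log2, and 0 passed. At an unadjusted p under 0.05 there were 4 members higher with MTOAC (0.933% of all genes) and 0 lower. The median was 0.11 log2 when CPC library 1 was left out, so it rests largely on that library. Nr4a1, an orphan nuclear receptor, stood at 12.3, 17.1 and 15.6 TPM with vehicle, at 29.1, 42.5 and 46.5 TPM with CPC and at 58.4, 60.9 and 56.3 TPM with MTOAC. CPC library 1 was the lowest of its group, the 3 groups did not overlap, and the difference between the compounds was 0.59 log2 (95% interval 0.21 to 0.96). Nr4a1 rose against vehicle by 1.91 log2 with MTOAC (adjusted p 0.000610) and by 1.32 log2 with CPC (adjusted p 0.0246, or 0.0857 without vehicle library 1).

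Fos, a subunit of the AP-1 factor, stood at 3.09, 4.10 and 2.70 TPM with vehicle, at 4.23, 8.75 and 9.71 TPM with CPC and at 9.94, 16.8 and 16.9 TPM with MTOAC. The lowest MTOAC library was barely above the highest CPC library, and the difference was 0.89 log2 (95% interval 0.22 to 1.56). Npas4, an activity-dependent factor, stood at 0.581, 0.844 and 1.004 TPM with vehicle, at 3.17, 6.31 and 5.10 TPM with CPC and at 7.93, 7.001 and 11.1 TPM with MTOAC (difference 0.74 log2, 95% interval 0.16 to 1.32). Npas4 rose with MTOAC by 2.40 log2 (adjusted p 0.00228), and its 1.66 log2 with CPC stood just outside the threshold (adjusted p 0.0540). Egr1, a zinc finger factor of the same class, overlapped widely at 2.26, 8.76 and 18.8 TPM with CPC and 3.24, 15.98 and 19.0 TPM with MTOAC. Library 1 was the lowest and library 3 the highest in each group at Egr1, vehicle included at 0.599, 1.67 and 5.78 TPM.

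The feedback genes of the ERK pathway, which encode phosphatases, Sprouty proteins and ETV factors, lay between these patterns. Of 17 tested members 14 had a positive and 3 a negative difference, with a median of 0.33 log2, but 0 reached an unadjusted p under 0.05. The median was 0.04 log2 without CPC library 1 and 0.14 log2 without MTOAC library 3. Against vehicle 1 of the 17 rose with MTOAC and 1 fell, beside 0.791% and 5.75% of all genes, and 0 passed with CPC. The fall was that of Etv1 (-0.61 log2, adjusted limma p 0.0377, not passing without vehicle library 1). Its difference between the compounds was -0.30 log2 (95% interval -0.63 to 0.03). Etv5 was the 1 member whose libraries did not overlap, lower with MTOAC (6.35% of all genes, difference -0.98 log2, 95% interval -2.06 to 0.11). The rise was that of Spry2, which dampens receptor tyrosine kinase signalling and was named after its values were seen (adjusted p 0.0383, or 0.114 without vehicle library 1). It stood at 25.9, 90.1 and 60.9 TPM with CPC and 64.7, 118 and 101 TPM with MTOAC. The groups overlapped, and the difference was 0.79 log2 (95% interval -0.25 to 1.84).

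**Figure D3:**
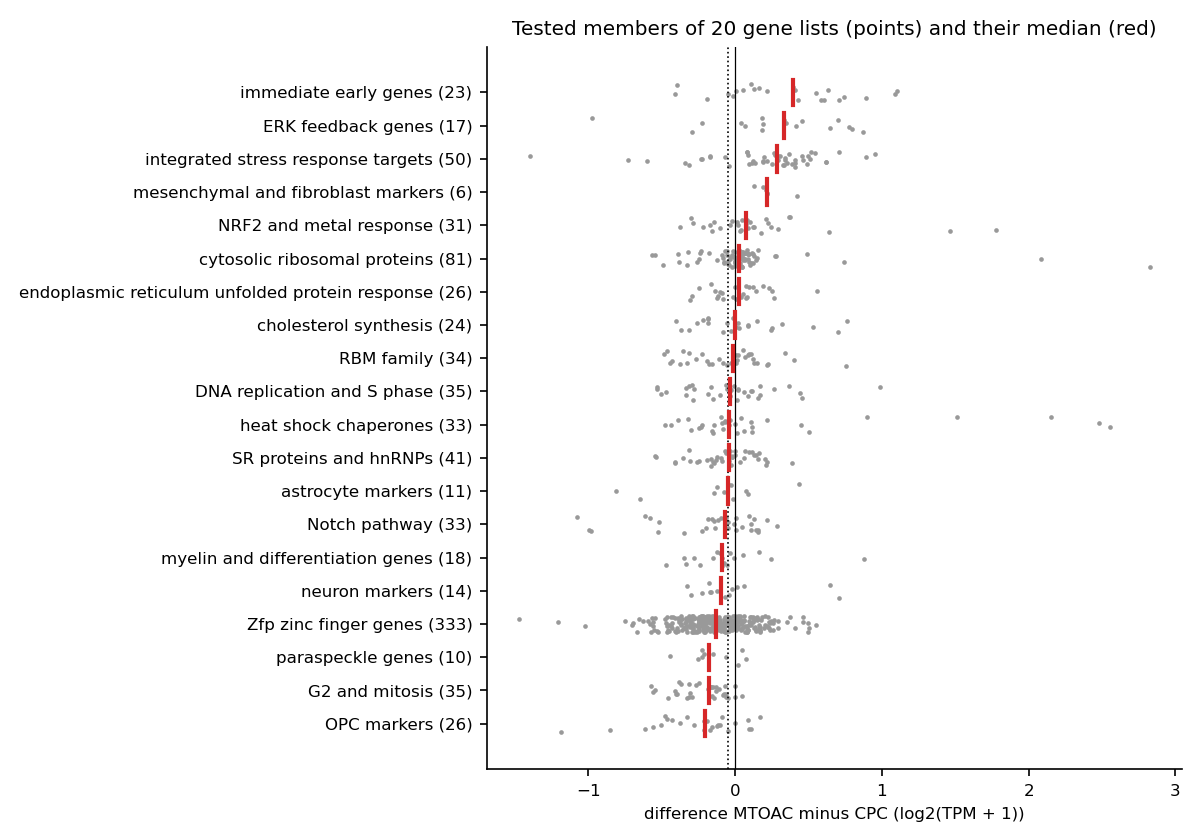
Difference MTOAC minus CPC on the log2(TPM + 1) scale for the tested members (grey points) of 20 gene lists, with the number of tested members in brackets and the list median in red; the dotted line is the median of all tested genes at -0.05. Medians run from -0.20 for OPC markers to 0.40 for immediate early genes, and 0 members of any list passed the adjusted test.

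OPC markers pointed the other way. Of 26 tested markers 4 had a positive and 22 a negative difference, with a median of -0.20 log2 against -0.05 over all genes, and 0 passed. Quantile normalization moved the median to -0.17 log2, with 5 positive and 21 negative. At an unadjusted p under 0.05 there were 3 lower and 0 higher, beside 2.81% and 0.933% of all genes. The same 3, Gpr17, Olig1 and Sox6, were the markers whose libraries did not overlap, all lower (6.35% of all genes). In bulk RNA, fewer cells of a type and less RNA per cell cannot be told apart.

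Gpr17, a receptor that marks progenitors committed to the oligodendrocyte fate, stood at 62.4, 50.7 and 63.8 TPM with vehicle, at 40.7, 21.98 and 36.2 TPM with CPC and at 15.96, 10.5 and 14.3 TPM with MTOAC. The groups were in a strict order with no overlap, and the difference between the compounds was -1.19 log2 (95% interval -1.86 to -0.52). Gpr17 fell by 2.05 log2 with MTOAC against vehicle (adjusted p 0.00745), and with CPC the value was -0.86 log2 (adjusted p 0.272). The span of Gpr17 overlaps that of Lims2 on the other strand. Without strand, reads may be confused where exons of the 2 genes overlap, which was not examined. Olig1, a lineage transcription factor, stood at 1016, 1282 and 1284 TPM with vehicle, at 786, 704 and 855 TPM with CPC and at 613, 525 and 456 TPM with MTOAC. Its difference was -0.56 log2 (95% interval -0.91 to -0.21), and it fell by 1.17 log2 with MTOAC against vehicle (adjusted p 0.00647).

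At Olig2, Sox10 and Pdgfra the compounds overlapped. Olig2, the partner of Olig1, stood at 333, 429 and 389 TPM with CPC and at 357, 380 and 263 TPM with MTOAC (difference -0.21 log2, 95% interval -0.62 to 0.19). Sox10, which drives myelin genes, stood at 48.6, 12.5 and 42.7 TPM with CPC and at 25.7, 7.15 and 21.9 TPM with MTOAC. Library 2 was the lowest of each group at Sox10, vehicle included at 45.1, 19.6 and 61.0 TPM, and the difference was -0.85 log2 (95% interval -2.41 to 0.71). Pdgfra, the growth factor receptor of OPCs, stood at 11.6, 20.2 and 28.8 TPM with CPC and at 11.5, 16.8 and 11.6 TPM with MTOAC, against 29.3, 35.6 and 29.3 TPM with vehicle (difference -0.50 log2, 95% interval -1.11 to 0.10). Sox6, which holds OPCs in the progenitor state and did not overlap between the compounds, stood at 70.1, 86.0 and 85.0 TPM with CPC and at 59.3, 56.4 and 69.8 TPM with MTOAC. Its vehicle libraries, at 85.4, 87.7 and 57.6 TPM, ran from within the MTOAC values to just above the CPC values.

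Among myelin and differentiation genes the compounds overlapped at every tested member. Of 18 tested of 31 listed, 4 had a positive and 14 a negative difference, with a median of -0.09 log2, and none reached an unadjusted p under 0.05. Median centring left 7 positive and 11 negative. Mbp, myelin basic protein, stood at 3.73, 1.57 and 1.43 TPM with CPC and at 4.49, 1.13 and 0.952 TPM with MTOAC. Library 1 was the highest in every group, at 5.43 TPM with vehicle, and the difference of -0.12 log2 (95% interval -1.45 to 1.20) took the opposite sign without MTOAC library 2 or 3 or CPC library 1. Sirt2, a deacetylase of oligodendrocytes, gave a much narrower result of -0.11 log2 (95% interval -0.31 to 0.10).

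The Notch pathway keeps progenitors undifferentiated, through DLL and JAG ligands on one cell, NOTCH receptors on the next and HES targets. Its 33 tested members had a median of -0.07 log2, with 12 positive and 21 negative, and 0 passed. After quantile normalization there were 16 positive and 17 negative, so the list as a whole had no direction. Against vehicle 1 of the 33, the ligand Jag1, rose with MTOAC and 4 fell, beside 0.791% and 5.75% of all genes. Without vehicle library 1 these were 0 and 2. The libraries of the compounds did not overlap at 1 member with MTOAC higher (2.26% of all genes) and 3 with MTOAC lower (6.35% of all genes). The 3 members at an unadjusted p under 0.05, all lower with MTOAC (2.81% of all genes), were the ligand Dll1, the target Hes5 and the receptor Notch4. Notch4 was close to the filter, at 1.57, 0.450 and 3.14 TPM with CPC and at 0, 0.9998 and 0 TPM with MTOAC, and its libraries overlapped. Dll1, a ligand, stood at 65.6, 58.8 and 58.7 TPM with vehicle, at 33.9, 29.8 and 38.02 TPM with CPC and at 22.3, 22.6 and 24.8 TPM with MTOAC. The 3 groups did not overlap, and the difference between the compounds was -0.52 log2 (95% interval -0.78 to -0.26), the smallest p among genes lower with MTOAC that met the naming conditions. Dll1 fell against vehicle by 1.36 log2 with MTOAC (adjusted p 0.000600) and by 0.83 log2 with CPC (adjusted p 0.0331, or 0.0997 without vehicle library 1).

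Hes5, a Notch target, stood at 115, 60.9 and 71.9 TPM with CPC and at 44.5, 41.4 and 28.0 TPM with MTOAC, from 125, 135 and 184 TPM with vehicle. CPC library 1 was near the vehicle range, and the difference between the compounds was -1.08 log2 (95% interval -1.86 to -0.30). Nrarp, a target that feeds back on the pathway, overlapped at 19.7, 5.92 and 11.2 TPM with CPC and 6.64, 3.88 and 4.92 TPM with MTOAC (difference -0.99 log2, 95% interval -2.04 to 0.05). Hes1, the other main target, stood at 24.0, 23.6 and 39.9 TPM with CPC and at 21.2, 19.0 and 26.3 TPM with MTOAC, and its vehicle values of 20.6, 19.2 and 38.2 TPM lay in the same range. Against vehicle Hes5 fell with MTOAC by 1.94 log2 (adjusted p 0.0151), while Hes1 stood at -0.16 log2 (adjusted p 0.788).

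Genes of G2 and mitosis lay lower with MTOAC almost throughout the list, each by a small amount. Of 35 tested members 33 had a negative difference and 2 a positive one, with a median of -0.18 log2 against -0.05 over all genes, of which 59.0% were negative. None passed, 7 had an unadjusted p under 0.05, all lower (2.81% of all genes), and 9 had libraries that did not overlap, all lower (6.35% of all genes). The median was -0.09 log2 without MTOAC library 2 and -0.29 log2 without MTOAC library 3, and median centring left 28 negative and 7 positive. Plk1, a mitotic kinase, stood at 65.8, 62.1 and 73.9 TPM with CPC and at 53.5, 52.7 and 40.8 TPM with MTOAC, from 83.8, 101 and 103 TPM with vehicle (difference -0.46 log2, 95% interval -0.76 to -0.15). Kif2c, a kinesin of the centromere, stood at 32.7, 27.6 and 31.3 TPM with CPC and at 24.1, 20.2 and 24.4 TPM with MTOAC (difference -0.40 log2, 95% interval -0.70 to -0.09). Cdk1, the kinase that starts mitosis, stood at 238, 252 and 255 TPM with CPC and at 219, 211 and 198 TPM with MTOAC, from 304, 294 and 296 TPM with vehicle. The 3 groups stood in the same order at Plk1, Kif2c and Cdk1, and the Cdk1 difference was only -0.25 log2 (95% interval -0.46 to -0.04).

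Mki67, the proliferation marker Ki-67, stood at 51.7, 47.0 and 46.6 TPM with CPC and at 35.9, 34.6 and 46.5 TPM with MTOAC, where library 3 nearly reached the CPC values. Against vehicle 17 of the 35 mitotic genes fell with MTOAC and 0 with CPC, beside 5.75% and 0.0333% of all genes. Without vehicle library 1 these were 11 and 0, and after median centring 10 and 0. The list lay below vehicle with CPC too, although 0 passed. With each compound 34 of the 35 were negative, with medians of -0.64 log2 with MTOAC and -0.50 log2 with CPC. The medians over all genes were -0.22 and -0.17 log2. Genes of DNA replication and S phase also lay mostly below vehicle, 31 of 35 with each compound. Their medians were -0.47 log2 with MTOAC and -0.35 log2 with CPC, and 3 fell with MTOAC (5.75% of all genes) and 0 with CPC. Between the compounds they did not lean as the mitotic genes did, with 15 positive and 20 negative differences and a median of -0.03 log2. Quantile normalization gave 19 and 16. Within that list Cdt1, which licenses replication origins, was slightly higher with MTOAC (0.37 log2, 95% interval 0.04 to 0.70), and Fen1, a flap endonuclease, slightly lower (-0.28 log2, 95% interval -0.54 to -0.02). Ccne1, cyclin E1, overlapped at 13.1, 8.86 and 12.2 TPM with CPC and 9.78, 7.37 and 10 TPM with MTOAC, both below the vehicle values of 25.4, 21.2 and 20.8 TPM. Btg2, an antiproliferative gene of early response and p53 control, stood at 94.7, 43.0 and 51.8 TPM with CPC and at 47.6, 23.6 and 25.1 TPM with MTOAC, from 150, 115 and 132 TPM with vehicle. Library 1 was the highest in each group at Btg2, and the compounds overlapped (difference -0.94 log2, 95% interval -1.77 to -0.12).

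RNA-processing genes gave small differences. Of 41 tested SR proteins and hnRNPs, which bind nascent transcripts and steer splicing, 14 had a positive and 27 a negative difference, with a median of -0.04 log2; median centring gave 23 and 18, so this list had no direction of its own. Srsf3, a splicing factor, stood at 181, 120 and 136 TPM with CPC and at 104, 90.3 and 101 TPM with MTOAC, from 241, 227 and 231 TPM with vehicle (difference -0.54 log2, 95% interval -0.90 to -0.17). The 10 tested paraspeckle genes had a median of -0.18 log2, with 3 positive and 7 negative, or 4 and 6 after median centring. Sfpq, a core paraspeckle protein, stood at 209, 248 and 227 TPM with vehicle, at 119, 129 and 128 TPM with CPC and at 99.5, 109 and 106 TPM with MTOAC. Most of the distance from vehicle was thus shared, and the difference between the compounds was -0.25 log2 (95% interval -0.46 to -0.04). Sfpq fell by 1.11 log2 with MTOAC (adjusted p 0.000600) and by 0.86 log2 with CPC (adjusted p 0.0115, or 0.0539 after quantile normalization). Rbm14, another paraspeckle protein, stood at 31.7, 34.1 and 32.6 TPM with CPC and at 27.7, 21.0 and 23.4 TPM with MTOAC (difference -0.44 log2, 95% interval -0.73 to -0.15). It overlaps the readthrough model Gm21992 on the same strand.

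The RBM family of RNA-binding motif genes was balanced, with 17 positive and 17 negative differences. Rbm12 stood near the same low level with both compounds, at 3.32, 3.50 and 2.57 TPM with CPC and 1.73, 2.35 and 2.12 TPM with MTOAC, from 13.99, 13.2 and 11.9 TPM with vehicle. The difference between the compounds was -0.43 log2 (95% interval -1.11 to 0.26), and Rbm12 fell with MTOAC by 2.20 log2 (adjusted p 0.00677) and stood at -1.77 log2 with CPC (adjusted p 0.0765). Rbm12 shares its locus with Cpne1 on the same strand. Zinc finger genes of the Zfp series were lower with MTOAC in 246 of 333, with a median of -0.13 log2, and 7 had an unadjusted p under 0.05, all lower (2.81% of all genes). Quantile normalization left 211 negative and 122 positive, with a median of -0.07 log2. Zfp286 stood at 5.78, 3.84 and 8.12 TPM with CPC and at 1.47, 3.04 and 0.396 TPM with MTOAC (difference -1.48 log2, 95% interval -2.33 to -0.62), and Zfp169 at 6.98, 4.85 and 11.4 TPM with CPC and 3.46, 2.66 and 1.89 TPM with MTOAC (difference -1.21 log2, 95% interval -1.97 to -0.44). These are low levels, at which TPM from few reads scatter.

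Sterol, antioxidant and ribosomal genes had list medians close to 0. Of 24 cholesterol synthesis genes 12 were positive and 12 negative, with a median of -0.00 log2. The 1 member at an unadjusted p under 0.05 was lower with MTOAC (2.81% of all genes). It was Mvk, mevalonate kinase (difference -0.37 log2, 95% interval -0.71 to -0.03). Median centring gave 15 positive and 9 negative. The 31 NRF2 and metal response genes had a median of 0.07 log2, with 21 positive and 10 negative (23 and 8 after median centring). The 1 member at an unadjusted p under 0.05, the zinc exporter Slc30a1, was higher with MTOAC (0.933% of all genes). Hmox1, heme oxygenase 1, stood at 59.3, 77.5 and 79.5 TPM with CPC and at 74.4, 94.5 and 81.3 TPM with MTOAC, from 38.5, 46.3 and 55.7 TPM with vehicle (difference 0.21 log2, 95% interval -0.17 to 0.60). Among 81 cytosolic ribosomal protein genes 46 were positive and 35 negative, with a median of 0.03 log2, and median centring gave 63 and 18. Rps27 was the exception in size, at 13.3, 91.0 and 18.7 TPM with CPC and 102, 429 and 209 TPM with MTOAC, but its vehicle libraries ranged from 55.3 to 249 TPM and it is uncertain because near-identical pseudogene copies can take its reads. Its difference was 2.83 log2 (95% interval 0.99 to 4.67).

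Outside the lists, the remaining genes with the smallest p were a mixed set. Among those higher with MTOAC, Eif3i, a subunit of the translation initiation factor eIF3, stood at 13.8, 11.5 and 11.4 TPM with CPC and at 23.5, 20.0 and 20.0 TPM with MTOAC, on either side of the vehicle values of 14.4, 17.2 and 16.2 TPM (difference 0.74 log2, 95% interval 0.39 to 1.10). Spata5, an AAA ATPase, also lay below vehicle with CPC and above it with MTOAC on average (difference 0.85 log2, 95% interval 0.40 to 1.30), and it overlaps Nudt6 on the other strand. Ssh1, a phosphatase that activates cofilin, gave 0.64 log2 (95% interval 0.27 to 1.002) and Dcun1d4, of the cullin neddylation machinery, 0.99 log2 (95% interval 0.33 to 1.65). At Eif3i, Spata5, Ssh1 and Dcun1d4 neither compound passed against vehicle, in contrast to Nr1d1. Nr1d1, the clock repressor REV-ERB alpha, stood at 4.88, 4.08 and 4.78 TPM with vehicle, at 6.39, 8.10 and 6.58 TPM with CPC and at 10.8, 10.1 and 14.3 TPM with MTOAC. It rose with MTOAC by 1.18 log2 (adjusted p 0.00940), and with CPC the value was 0.52 log2 (adjusted p 0.265). Nr1d1 overlaps Thra on the other strand.

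Among genes lower with MTOAC, Omg, the oligodendrocyte myelin glycoprotein, stood at 32.6, 33.0 and 29.5 TPM with vehicle, at 17.7, 15.3 and 18.7 TPM with CPC and at 10.2, 8.98 and 13.6 TPM with MTOAC (difference -0.63 log2, 95% interval -0.98 to -0.28). The groups stood in strict order, and Omg lies inside Nf1 on the other strand. Polr3k, a subunit of RNA polymerase III, stood at 70.3, 54.4 and 61.7 TPM with CPC and at 42.1, 33.6 and 41.7 TPM with MTOAC (difference -0.65 log2, 95% interval -1.01 to -0.30). Actr5, of the INO80 chromatin remodeller, differed from most in that CPC left it near vehicle, at 6.32, 7.90 and 8.19 TPM against 6.15, 8.42 and 6.77 TPM, while MTOAC stood at 4.45, 3.69 and 3.10 TPM.

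Gga3, a clathrin adaptor of the trans-Golgi network, shared that pattern at lower precision, with 8.74, 2.33 and 9.59 TPM for CPC, 1.09, 0.422 and 0.775 TPM for MTOAC and 7.13, 3.12 and 5.002 TPM for vehicle. Library 2 was the lowest of each group, and the difference was -2.01 log2 (95% interval -3.03 to -0.98). Gga3 overlaps Mrps7 on the other strand. The last of the set were Pramef8 at -0.68 log2 (95% interval -1.01 to -0.34), Shkbp1 at -0.75 log2 (95% interval -1.15 to -0.35) and the zinc finger gene Zbtb40 at -0.84 log2 (95% interval -1.30 to -0.37). Shkbp1 overlaps Gm20479 on the same strand. Ubap2, a ubiquitin-associated protein, had wide scatter, at 33.9, 42.3 and 16.9 TPM with vehicle, 4.70, 21.1 and 24.0 TPM with CPC and 1.64, 0.803 and 4.20 TPM with MTOAC (difference -2.33 log2, 95% interval -3.71 to -0.95). The lowest CPC library was close to the highest MTOAC library.

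**Figure D4:**
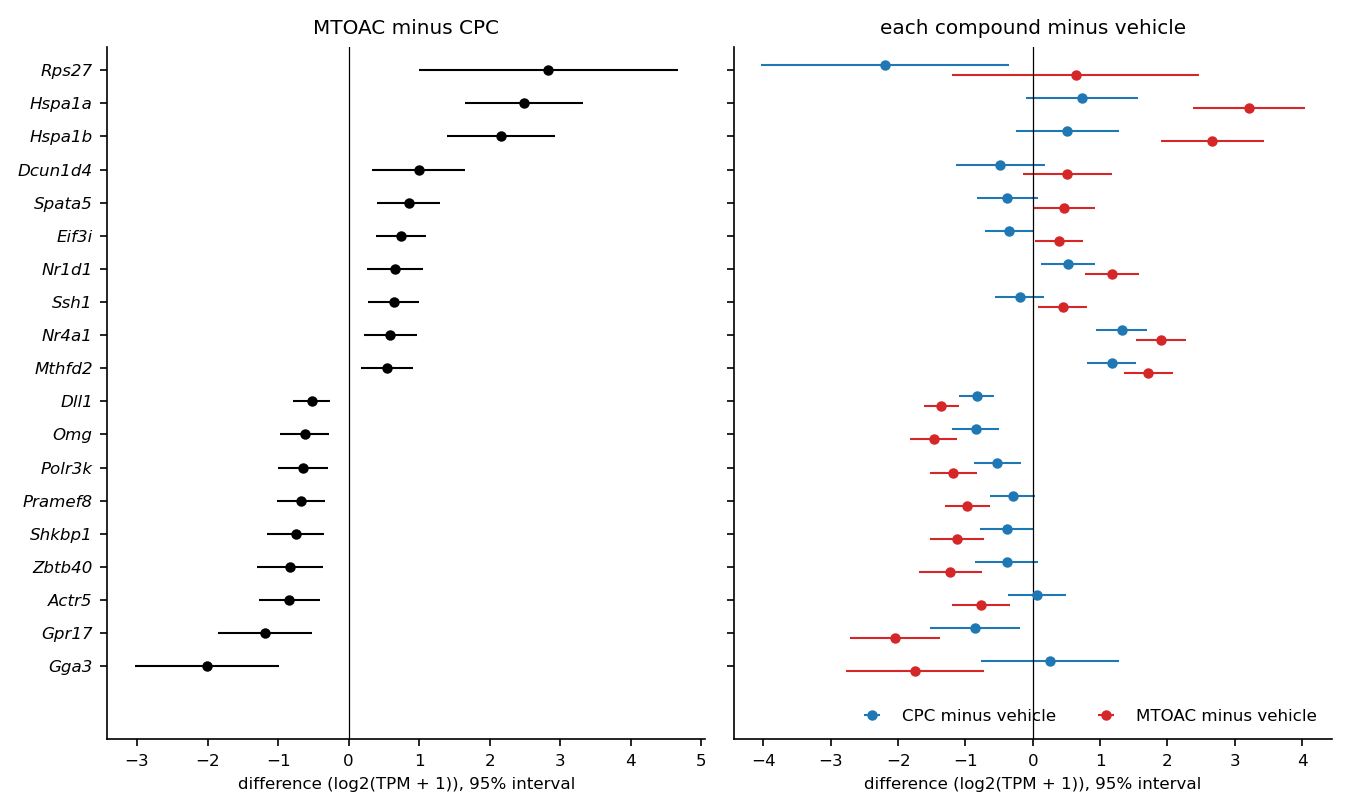
Left, the difference MTOAC minus CPC with its 95% interval for 19 of the 20 genes with the smallest p, on the log2(TPM + 1) scale; right, each compound minus vehicle for the same genes. These genes were selected for a small p on the left side, where 0 passed. On the right, 5 of the 10 higher and all 9 lower genes drawn passed with MTOAC and 2 and 1 passed with CPC. Over all genes 0.791% rose and 5.75% fell with MTOAC, and 0.0333% passed in each direction with CPC.

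Against vehicle, the 10 genes named as higher with MTOAC included 5 that rose with MTOAC and 2 that rose with CPC, and the 10 named as lower included 10 that fell with MTOAC and 1 that fell with CPC. Over all genes 0.791% rose and 5.75% fell with MTOAC, and 0.0333% passed in each direction with CPC. All 3 of these CPC calls missed the threshold without vehicle library 1, Nr4a1 at an adjusted limma p of 0.0857, Mthfd2 at 0.0898 and Dll1 at 0.0997. Of the falls, those of Actr5 and Gga3 missed the threshold without vehicle library 1, and those of Actr5, Gga3 and Shkbp1 were among the ones that missed it after median centring. These comparisons share the MTOAC libraries with the contrast that chose the genes and so give no independent support.

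The cells carried the OPC markers and lacked those of microglia. Of 27 OPC markers 26 were tested, and 0 of 12 microglia and myeloid markers were, with Cx3cr1, Trem2, Tyrobp, C1qa and C1qb at 0 in all 12 libraries and a sum of at most 3.39 TPM in any vehicle, CPC or MTOAC library. Of 15 astrocyte markers 11 were tested, summing to 345 to 365 TPM with CPC and 324 to 364 TPM with MTOAC. Their median was -0.05 log2, with 3 positive and 8 negative (6 and 5 after median centring), and Gfap, Gjb6 and Gjb2 were below the filter. Of 17 neuron markers 14 were tested, summing to 543 to 844 TPM with CPC and 487 to 722 TPM with MTOAC, with a median of -0.10 log2, 4 positive and 10 negative (6 and 8 after median centring), and Slc17a6 at 0 in all libraries. Of 13 mesenchymal markers 6 were tested, all with a positive difference and a median of 0.21 log2, summing to 69.3 to 124 TPM with CPC and 80.4 to 142 TPM with MTOAC, with Pdgfrb at 0 in all libraries. The sums of the 2 compounds overlapped in each of these lists, and their part in the differences above was not tested. The other 16 lists, with 452 tested memberships, had medians between -0.21 and 0.11 log2. The lowest was that of neural stem cell markers, beside -0.20 log2 for OPC markers. At an unadjusted p under 0.05 there were 2 memberships higher and 13 lower, beside 0.933% and 2.81% of all genes.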

How the data were processed

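RNA was sequenced as 150-base read pairs after poly(A) selection, per the series' design text, and Salmon and mm10 are named in the submitters' processing notes; no version or annotation for Salmon is stated there. Per the file headers the authors deposited TPM for 35385 gene symbols per library, which were used as they stand; TPM are relative to the library's total, so abundant transcripts move all others. Counting was not repeated, and the depth behind each value is unknown. Of the symbols 34858 matched GENCODE M21, which gave positions; promoters are from RefSeq (GRCm38.p6).

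The test took genes reaching 1 TPM in 3 or more of the 12 libraries and ran on log2(TPM + 1), a scale that understates changes of low genes, with limma 3.58.1 (trend and robust moderation) in R 4.3.3. The fit had 4 group means, 1 spread common to them and no further term; two-sided p-values were adjusted over all tested genes, with calls under 0.05. With 3 libraries a group, 0.1 is the smallest p an exact permutation test allows. The fit was tested on simulated data.

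Named genes were to be those called, or, where fewer than 10 were called in a direction, the 10 with the smallest p among gene models averaging 5 TPM or more where they were higher and showing no overlap between the compounds' libraries; 3 members per list with the smallest p; and 30 fixed genes. Some of these are given in counts only, and some are not reported here. The libraries compared, the 37 gene lists and the fixed genes were chosen with earlier results of these data known. Lists are described by counts and medians, with no set test. Alternatives covered scaling, pseudocount, filter, moderation, the replicate number as a block and leaving out each library; leaving out vehicle libraries 2 and 3, summing Hspa1a with Hspa1b, and the recounts against vehicle were chosen after seeing the data.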

Additional observations from a re-analysis of the deposited data

Results flagged for a closer look

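AEBDAC, the third quaternary ammonium compound of the series, enters no comparison above, but at 5 of the 10 genes named as higher with MTOAC all 3 AEBDAC libraries lay above all vehicle libraries. The share over all genes was not counted for AEBDAC. Libraries did not overlap vehicle, in either direction, at 26.4% of all genes with MTOAC and 20.6% with CPC. The AEBDAC means were 14.5 TPM for Hspa1a, 15.95 TPM for Hspa1b, 9.78 TPM for Nr1d1, 65.4 TPM for Nr4a1 and 155.0 TPM for Mthfd2. At the remaining named genes AEBDAC and vehicle libraries overlapped. The AEBDAC mean was below the vehicle mean at Eif3i (12.9 against 15.9 TPM), Dcun1d4 (1.93 against 3.90 TPM) and Rps27 (72.3 against 160 TPM). It was slightly above at Spata5 (7.96 against 7.27 TPM) and Ssh1 (6.14 against 5.99 TPM). These are given as values, with no test.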

How the results depend on the processing

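The number of genes called between MTOAC and CPC was 0 in 19 of 21 alternatives. It was 1 without the filter on low values, the pseudogene Gm6520, listed at 0 with MTOAC and at 0.480 to 0.509 TPM with CPC (adjusted limma p 0.00252), and 1, Hspa1a, without CPC replicate 2; over all leave-one-out fits it ranged from 0 to 1. With the replicate number as a block it was 0, with 825 genes at an unadjusted p under 0.05 in place of 449, and 0 with 815 when quantile normalization was added. Shared cultures are not stated. Deviations of same-numbered MTOAC and CPC libraries from their group means correlated across genes at 0.17, 0.40 and 0.09, so not all passed 0.1 and the numbers were not taken to pair the libraries. Against vehicle the block gave more calls, 1904 with MTOAC and 184 with CPC, or 1194 and 115 with quantile normalization. Of 64 genes recomputed, 44 then passed with MTOAC and 21 with CPC, in place of 42 and 6, and among 35 mitotic genes 23 and 2 fell. MTOAC libraries 1 and 2 correlated best with their own number, and library 3 did not.

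Over 1338 recomputed gene differences, 1330 kept their direction and side of the threshold, 1 newly passed (Hspa1a, 2.92 log2) and 7 changed sign, in Mbp, Atf4 and Egr1, whose reported intervals include 0. Mbp gave 0.08, 0.15 and 0.18 log2 without MTOAC replicate 2, MTOAC replicate 3 and CPC replicate 1 (leave-one-out -0.60 to 0.18). Atf4 gave -0.00121 and -0.0367 without MTOAC replicate 2 and CPC replicate 1 (-0.0367 to 0.26), and Egr1 -0.01 and -0.30 without MTOAC replicate 3 and CPC replicate 1 (-0.30 to 1.10). The Notch pathway median was -0.00789 after quantile normalization, with and without the replicate block, -0.00187 after median centring and -0.0401 at pseudocount 5, and -0.118 to -0.0710 over leave-one-out fits. The median of immediate early genes ranged from 0.11 to 0.60 over them. The cause of these changes was not tested.

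TPM carry no depth, so low values resting on few reads are not marked as such.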
